A study of Mus musculus with 8 samples.

Results

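Tetraspanins are small membrane proteins that span the membrane repeatedly and gather integrins, proteases and immunoglobulin-like partners into patches of the cell surface and of endosomes. In mouse macrophages Cd9 and Cd81 are known to restrain fusion into multinucleated cells, a step that osteoclasts take as they form. The genes described here are those of 10 tetraspanins, chosen by symbol: Cd9, Cd81, Cd63, Cd37, Cd53, Cd82, Cd151, Tspan7, Tspan4 and Tspan14. Of these, 9 had an annotated transcript cluster, the array's unit for a gene, among 19505 genes with one, and Tspan7 was not analysed here. All 9 passed the filter on dim genes that kept 10871 genes, and on none of the 8 arrays did any of them lie within background, the range of the probe sets that match no mouse transcript.

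The study grew marrow of C57BL6/J mice as 4 cultures and hybridised RNA from each at days 3 and 6 to Affymetrix arrays, 1 per culture and day. The PSS1-LMS and PSS1-WT cultures received M-CSF (50 ng/ml), RANKL (100 ng/ml) and, a day later, a retrovirus carrying mutant or wild-type PSS1, the phosphatidylserine synthase encoded by Ptdss1. The M-CSF+RANKL culture received both factors, and the M-CSF culture, in which such cells become macrophages, received M-CSF alone. Whether the last pair received an empty virus, which mutation PSS1-LMS carries and how many animals were pooled are not given in the labels. With no replicate in any group, precision is limited by how few arrays there are.

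The labels call all samples bone marrow cells. All 8 osteoclast markers rose with RANKL, and 13 of 14 macrophage markers fell while none rose. Over the 8 arrays, none of the B cell markers and 1 T and NK cell marker, Cd4, passed the filter. All 4 megakaryocyte markers with a cluster passed it, though Gp9 and Ppbp lay within background on all 8 arrays. Pf4 was at 15.03 and 14.81 in M-CSF on days 3 and 6 and fell with RANKL (difference -8.17). Of the erythroid markers Slc4a1 passed the filter. Of the stromal and osteoblast markers Col1a1 and Col1a2 passed it, both within background on all 8 arrays. Of 5 measured dendritic cell markers, 3 rose with RANKL (Itgax, H2-Aa and H2-Eb1) and none fell, with a median difference of 1.30. Itgax lay within background on 7 of the 8 arrays and H2-Eb1 on 5, so no fold is given for them. For H2-Aa, within background in M-CSF on day 6, the bound on the averaged fold is 1.59. With RANKL, 9 of 11 neutrophil markers fell by day 6. Of these 9, Camp lay within background on all 8 arrays and Retnlg on 7. In M-CSF, Csf3r went the other way, from within background on day 3 to 9.96 on day 6.

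Of the 4 tetraspanins whose difference with RANKL passed the test described below, Cd81 and Cd53 were lower and Cd63 and Cd82 higher. The 250 bases before the most upstream start of each are shown to set the DNA of genes that moved in opposite directions side by side. They are from RefSeq on build GRCm38.p6, where all 10 symbols matched, and capitals mark matches to 4 motifs searched on both strands.
Cd81, chr7:143052500-143052749, plus strand: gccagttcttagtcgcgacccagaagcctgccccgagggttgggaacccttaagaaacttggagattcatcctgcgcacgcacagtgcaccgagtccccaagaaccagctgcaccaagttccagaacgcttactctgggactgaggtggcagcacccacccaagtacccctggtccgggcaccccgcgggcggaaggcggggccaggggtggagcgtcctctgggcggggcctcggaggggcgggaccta
Cd53, chr3:106790150-106790399, minus strand: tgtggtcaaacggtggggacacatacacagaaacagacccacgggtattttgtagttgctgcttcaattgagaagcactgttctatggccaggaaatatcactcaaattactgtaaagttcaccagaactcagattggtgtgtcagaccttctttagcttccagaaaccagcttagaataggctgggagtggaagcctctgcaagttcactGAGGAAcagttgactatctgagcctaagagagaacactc
Cd63, chr10:128909095-128909344, plus strand: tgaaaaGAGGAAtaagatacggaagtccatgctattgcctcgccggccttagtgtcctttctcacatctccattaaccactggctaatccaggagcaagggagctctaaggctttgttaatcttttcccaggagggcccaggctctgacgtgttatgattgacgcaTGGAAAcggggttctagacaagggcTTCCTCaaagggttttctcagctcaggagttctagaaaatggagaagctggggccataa
Cd82, chr2:93462951-93463200, minus strand: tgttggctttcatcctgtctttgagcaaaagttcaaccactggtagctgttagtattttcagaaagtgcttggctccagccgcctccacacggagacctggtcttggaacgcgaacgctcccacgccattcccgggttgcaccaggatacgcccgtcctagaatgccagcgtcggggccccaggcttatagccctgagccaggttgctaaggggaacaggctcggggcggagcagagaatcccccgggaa

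The letters searched were GAGGAA for the core that PU.1 binds, TGGAAA for an NFAT core, TGANTCA for AP-1 and CACGTG for the E-box of the MiT factors; the first pair share the letters GGAA, and no matches overlapped in the sequences shown. GAGGAA was found before Cd53, Cd63, Cd37 and Tspan14, 4 of 10 members, against 23.3% of 32851 promoter windows of the same length. TGGAAA was found before Cd63 only (18.6% of windows), CACGTG before Cd37 only (6.02%), and TGANTCA before none of the 10 (6.75%). The windows of Cd81 and Cd82, the members with the largest fall and the largest rise, held none of the 4 motifs. Cd82 has 4 annotated starts and Cd151, Tspan4 and Tspan14 have 2 each. Only the most upstream start of each member was searched, while the 32851 windows were not limited to 1 start per gene. A match describes letters in this window and no more.

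The first comparison asked how adding RANKL to M-CSF altered the family. Values are log2 signals as the authors deposited them, so 1 unit is a 2-fold difference. The test was limma on the difference averaged over the 2 days, with Benjamini-Hochberg adjustment over 10871 genes and a threshold of 0.05. Of the 9 tetraspanins, 2 rose and 2 fell, against 26.4% of all genes called, 14.1% higher and 12.4% lower. Their median difference was 0.26, against 0.03 over all genes tested. In bulk RNA, fewer cells of a type and less RNA per cell cannot be told apart.

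Cd81, the partner of Cd9, made by far the widest move of the family. Its signal was 10.60 on day 3 and 12.45 on day 6 in the M-CSF+RANKL culture, against 17.55 and 18.02 in the M-CSF culture. The RANKL culture was thus 123-fold lower on day 3 and 47.5-fold lower on day 6. The averaged difference was -6.26 ± 0.42 (SE, limma adjusted p = 4.41e-05), a 76.4-fold fall that was the 45th largest among the 10871 genes. Cd81 was lower in all 6 arrays with RANKL than in both arrays without it. Those with RANKL include the cultures given the virus, so they are not repeats of the same treatment. The share of all genes with such a separation is not given. Here and for the members below, the separation therefore only describes the arrays.

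Cd53, a tetraspanin of leukocytes, fell less. It was at 14.02 and 14.21 in M-CSF+RANKL on days 3 and 6, against 15.97 and 16.64 in M-CSF. The difference was -2.19 ± 0.32 (SE, limma adjusted p = 0.00184), or 4.56-fold. The groups with and without RANKL did not overlap for Cd53 either.

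Cd82, known as a suppressor of metastasis, rose most among the members. Its signal was 16.15 and 16.36 in M-CSF+RANKL, against 12.87 and 13.94 in M-CSF. That made a 7.21-fold rise (2.85 ± 0.37 SE, limma adjusted p = 0.00112). Every array with RANKL, from 15.52 to 16.36, lay above both arrays without it.

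Cd63, which resides in late endosomes, lysosomes and exosomes, was at 17.72 and 17.61 in M-CSF+RANKL, against 15.47 and 16.41 in M-CSF. It rose 3.30-fold (1.72 ± 0.34 SE, limma adjusted p = 0.00791). Arrays with and without RANKL did not overlap. When the day 3 array of M-CSF+RANKL was left out, the difference was 1.28 and did not pass (limma adjusted p = 0.107).

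The other 5 members did not pass. Cd9, which on the mouse egg is needed for fusion with sperm, was at 14.84 and 15.38 in M-CSF+RANKL, against 14.42 and 14.16 in M-CSF (0.82 ± 0.32 SE, limma adjusted p = 0.106). It was higher with RANKL on both days, and in each of the 6 arrays with RANKL than in either array without it, but by 1.34-fold on day 3 and 2.32-fold on day 6. With the M-CSF array of day 3 left out its difference was 1.20 (limma adjusted p = 0.00584). In such a fit 1 M-CSF array is left, its spread is assumed to be that of the other cultures, and the change between days in M-CSF no longer counts as error. Cd9 and Cd81, which share partners, thus had differences of opposite sign, and only that of Cd81 passed.

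Cd37, a tetraspanin of B cells and other leukocytes, was at 16.28 and 15.94 in M-CSF+RANKL, against 14.28 and 16.15 in M-CSF. The difference was 2.01 on day 3 and -0.21 on day 6, so the average of 0.90 ± 0.60 (SE, limma adjusted p = 0.321) describes neither day. Without the M-CSF array of day 6 it was 2.09 (limma adjusted p = 6.32e-05), close to the day 3 difference and with the spread taken from the other cultures, and without that of day 3 it was -0.30.

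Cd151, which binds laminin-receptor integrins, was at 9.03 and 9.70 in M-CSF+RANKL, against 9.13 and 9.85 in M-CSF (-0.13 ± 0.38 SE, limma adjusted p = 0.840). Tspan14, which escorts the protease Adam10 to the cell surface, was at 11.65 and 12.38, against 11.56 and 11.95 in M-CSF (0.26 ± 0.33 SE, limma adjusted p = 0.625). For both genes the arrays with and without RANKL overlapped. Tspan4, known from the migrasomes that crawling cells leave behind, was at 8.62 and 9.67 in M-CSF+RANKL, against 8.30 and 10.34 in M-CSF (-0.17 ± 0.52 SE, limma adjusted p = 0.841). The difference of Tspan4 was -1.02 without the M-CSF array of day 3 (limma adjusted p = 0.0415) and 0.67 without that of day 6, again with the spread of the other cultures.

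**Figure D1:**
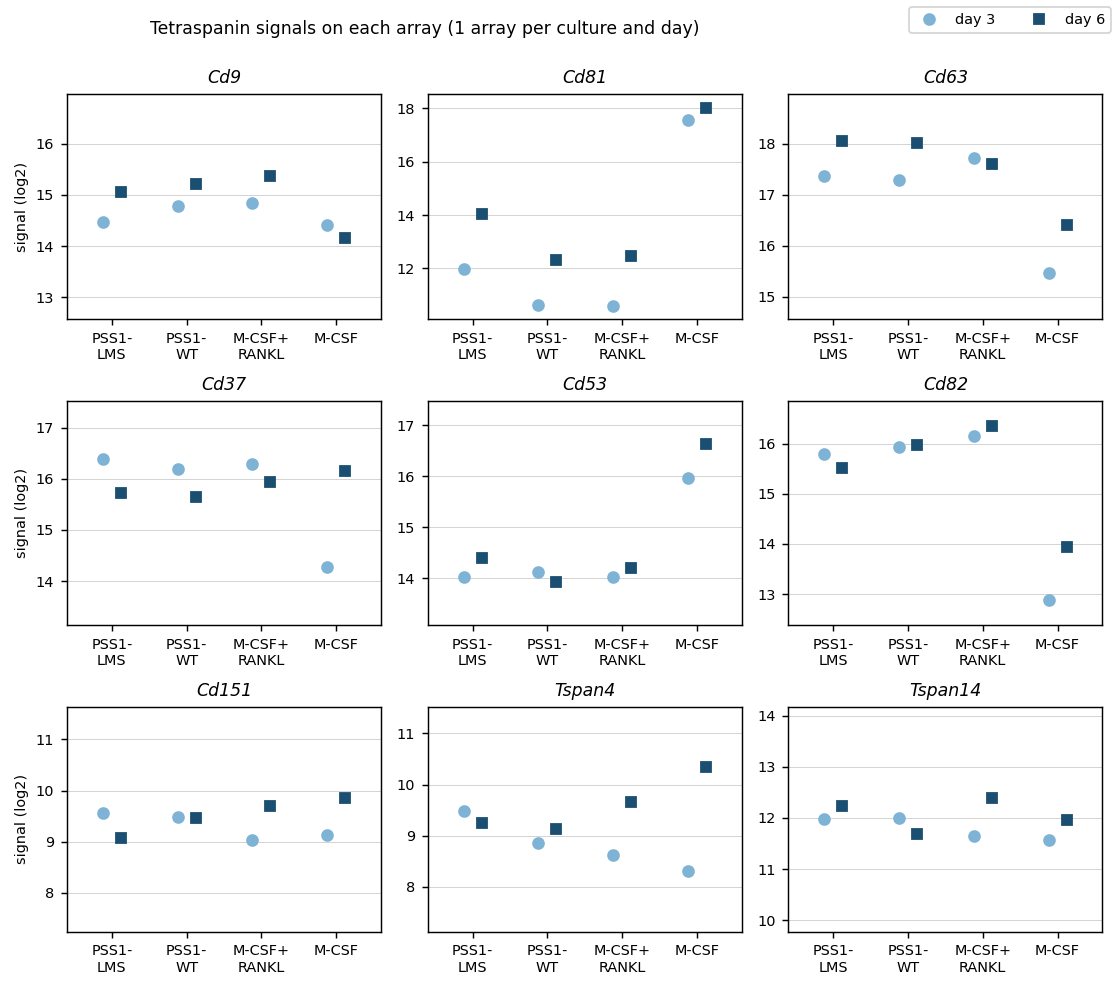
Log2 signals of the 9 measured tetraspanins (one panel per gene, each with its own vertical range) in the 4 cultures; each point is 1 array, circles for day 3 and squares for day 6. Cd81 sits at 17.55 and 18.02 in M-CSF and at 14.05 or below in every array with RANKL, while Cd82 and Cd63 are higher in every array with RANKL than in M-CSF.

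**Figure D2:**
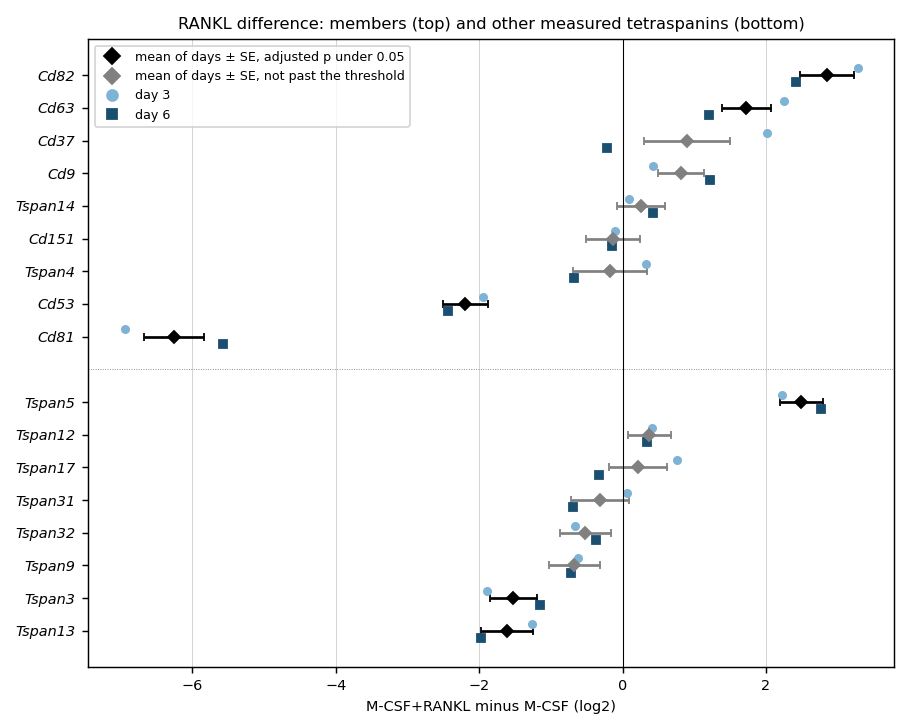
M-CSF+RANKL minus M-CSF (log2) for the 9 members and for the 8 other measured tetraspanins, with the mean of the days and its SE from limma as diamonds (black past the adjusted threshold) and the single days as circles and squares. Among the members, Cd82 and Cd63 rose and Cd81 and Cd53 fell, and Cd37 and Tspan4 have their days on opposite sides of 0. Of the other tetraspanins, Tspan17 and Tspan31 have theirs on opposite sides too.

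The rest of the family was mostly dim. Of the 21 other mouse tetraspanins with a cluster, 8 passed the filter, and 1 of these rose and 2 fell with RANKL. The filter, at 4.86, was under the background of every array. Tspan9 and Tspan12, which passed it, lay within background on all 8 arrays. Tspan5, which like Tspan14 belongs to the TspanC8 subgroup that escorts Adam10, was at 10.92 and 10.71 in M-CSF+RANKL, against 8.70 and 7.95 in M-CSF. It rose 5.63-fold (2.49 ± 0.30 SE, limma adjusted p = 0.000713). Of the 6 TspanC8 genes 3 were measured, and Tspan5 was the one that passed; Tspan17, the other besides Tspan14, had a difference of 0.22.

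Tspan3 fell 2.88-fold (-1.52 ± 0.33 SE, limma adjusted p = 0.0111), with 8.71 and 9.36 in M-CSF+RANKL, against 10.61 and 10.52 in M-CSF. Tspan13 fell as well (-1.62 ± 0.37 SE, limma adjusted p = 0.0142). Its signal of 5.61 on day 3 in M-CSF+RANKL was within the background of that array, so its fall is at least 2.67-fold. Tspan32, the neighbouring tetraspanin gene of Cd81 on chromosome 7, did not pass (-0.52 ± 0.35 SE, limma adjusted p = 0.329).

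Of 16 genes whose proteins associate with tetraspanins, 11 were measured; 3 rose and 3 fell, and their median difference was -0.73. Itga6, the laminin-receptor subunit that Cd151 holds, fell 39.5-fold (-5.30 ± 0.32 SE, limma adjusted p = 3.14e-05). Itgb1, the partner subunit of Itga6, was lower with RANKL at first (-0.85, day 3) and higher later (0.89, day 6). These opposite values nearly cancel, and the Itgb1 average of 0.02 describes neither day. Cd36, a scavenger receptor that associates with Cd9 in macrophages, fell 288-fold (-8.17 ± 0.50 SE, limma adjusted p = 3.14e-05). Adam10 fell 2.58-fold (-1.37 ± 0.39 SE, limma adjusted p = 0.0350), while its escort Tspan5 rose.

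Mmp14, a membrane-bound collagenase, rose at least 1140-fold (11.22 ± 0.47 SE, limma adjusted p = 6.57e-06), because its M-CSF signals of 4.96 and 6.32 were within background. Ptgfrn, the immunoglobulin-like partner of Cd9 and Cd81, rose by 1.95 ± 0.29 (SE, limma adjusted p = 0.00227) but was within background in M-CSF, so the bound on its fold is 1.03. Hbegf passed by 1.60 with all 8 arrays within background, and no fold is given for it. Of 7 measured fusion genes 4 rose and 2 fell. Dcstamp and Ocstamp, needed for cell fusion, were within background on both M-CSF arrays and rose at least 1010-fold and at least 292-fold. Atp6v0d2 was within background in M-CSF on day 3 but at 12.55 there on day 6. It was higher with RANKL by at least 7530-fold on day 3 and by 86.6-fold on day 6. Its averaged bound of 807-fold thus describes neither day. The hyaluronan receptor Cd44 rose by 1.60 on the log2 scale. Adam8 and Cd47 fell (-3.56 and -1.10).

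The next comparisons asked what PSS1 changed in cells with RANKL. Ptdss1 itself was at 18.79 and 17.50 in PSS1-LMS and 18.91 and 18.06 in PSS1-WT, against 9.56 and 10.36 in M-CSF+RANKL, so it was high in the cultures labelled with the virus. Among the 9 tetraspanins, Cd81 was the one that passed against M-CSF+RANKL, in the culture with the mutant. It was at 11.97 and 14.05 on days 3 and 6 in PSS1-LMS, against 10.60 and 12.45 in M-CSF+RANKL. That was a 2.79-fold rise (1.48 ± 0.25 SE, limma adjusted p = 0.0348), with 2.57-fold on day 3 and 3.02-fold on day 6. The fit over the 6 arrays with RANKL called 0.175% of all genes, 0.156% higher and 0.0184% lower. Cd81 was thus 1 of 17 genes that rose, and Ptdss1 itself was another. The rest were Pmp22, Il7r, Cd36, Trem2, Ncf1, Clec4d, Fcgr3, Bhlhe41, Mmp12, Slamf7, Sirpb1c, Ccl3, Igf1, Mmp8 and Tlr13. None of the 17 is on the list of 15 macrophage markers used below, while Mmp8 is on the neutrophil list. Absence from so short a list does not show that a gene is not one of macrophages.

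The Cd81 signal in PSS1-LMS stayed far under that of the macrophage culture. It was 47.8-fold lower than in M-CSF on day 3 and 15.7-fold lower on day 6. In M-CSF+RANKL the same distances were 123-fold and 47.5-fold, and in PSS1-WT 122-fold and 52.6-fold.

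The rise was close to the threshold. Without the PSS1-LMS array of day 6 the difference was 1.32 (limma adjusted p = 0.195), and over all alternatives the adjusted p ran from 0.00126 to 0.9999. The size of the difference stayed between 1.32 and 1.64 in all of them.

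With wild-type PSS1, Cd81 was at 10.62 and 12.30, against 10.60 and 12.45 in M-CSF+RANKL (-0.07 ± 0.25 SE, limma adjusted p = 0.977). Mutant and wild type differed by 1.55 ± 0.25 (SE, limma adjusted p = 0.0792), with 11.97 and 14.05 in PSS1-LMS, against 10.62 and 12.30 in PSS1-WT. That is 2.92-fold and ranked second by p among the 10871 genes, of which the test called 0%. The mutant's effect is therefore not shown to differ from that of the wild type at the threshold. Its adjusted p passed in 6 of the alternatives, among them without the PSS1-WT array of day 3 (0.0144).

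Of 14 measured macrophage markers, 8 were higher and 1 lower on both days in PSS1-LMS than in M-CSF+RANKL, with a median difference of 0.56, and none passed. Against PSS1-WT, 10 were higher and 1 lower on both days. The log2 of their summed signal was 18.54 and 18.94 in PSS1-LMS, against 18.27 and 18.20 in PSS1-WT and 17.92 and 18.15 in M-CSF+RANKL; it was 20.45 and 21.04 in M-CSF. In the cultures with RANKL, Lyz2 and Csf1r made up 97.6% to 98.1% of that sum, and in M-CSF Lyz2 was at 19.90 on day 3 and held the highest value of the table on day 6. The mean log2 signal over the 14 was 8.64 and 9.19 in PSS1-LMS, against 8.20 and 8.61 in PSS1-WT and 8.30 and 8.65 in M-CSF+RANKL, and 13.97 and 15.10 in M-CSF. Within background on both days in M-CSF+RANKL and in PSS1-LMS were Mertk, Fcgr1 and Cx3cr1. The part of these markers in the Cd81 result was not tested.

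Cd36, of the partner list, also rose with the mutant, by 1.90 ± 0.30 (SE, limma adjusted p = 0.0332). It was at 9.05 and 12.62 in PSS1-LMS, against 7.84 and 10.03 in M-CSF+RANKL. Unlike Cd81 it was also higher in PSS1-WT, at 9.05 and 11.84, where the difference of 1.51 did not pass (limma adjusted p = 0.340).

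The other 8 tetraspanins did not pass in any PSS1 comparison. Cd82 was lowest in the mutant on both days, at 15.80 and 15.52 in PSS1-LMS and 15.93 and 15.98 in PSS1-WT, against 16.15 and 16.36 in M-CSF+RANKL. Its difference was -0.60 ± 0.25 with PSS1-LMS (SE, limma adjusted p = 0.701) and -0.30 ± 0.25 with PSS1-WT (adjusted p = 0.833). Cd9 was at 14.48 and 15.06 in PSS1-LMS and 14.79 and 15.21 in PSS1-WT, against 14.84 and 15.38 in M-CSF+RANKL, with differences of -0.34 and -0.11. The remaining 6 lay between -0.05 and 0.22 for PSS1-LMS and between -0.19 and 0.11 for PSS1-WT.

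With wild-type PSS1 no tetraspanin passed by limma, none had an unadjusted p under 0.05, and the test called 0.0092% of genes higher and 0% lower. With PSS1-LMS an unadjusted p under 0.05 was reached by Cd81 and Cd82. For Cd63, Cd151, Tspan4 and Tspan14 the differences of both PSS1 cultures from M-CSF+RANKL had opposite signs on the 2 days. No direction common to the days can be given for these 4 genes.

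**Figure D3:**
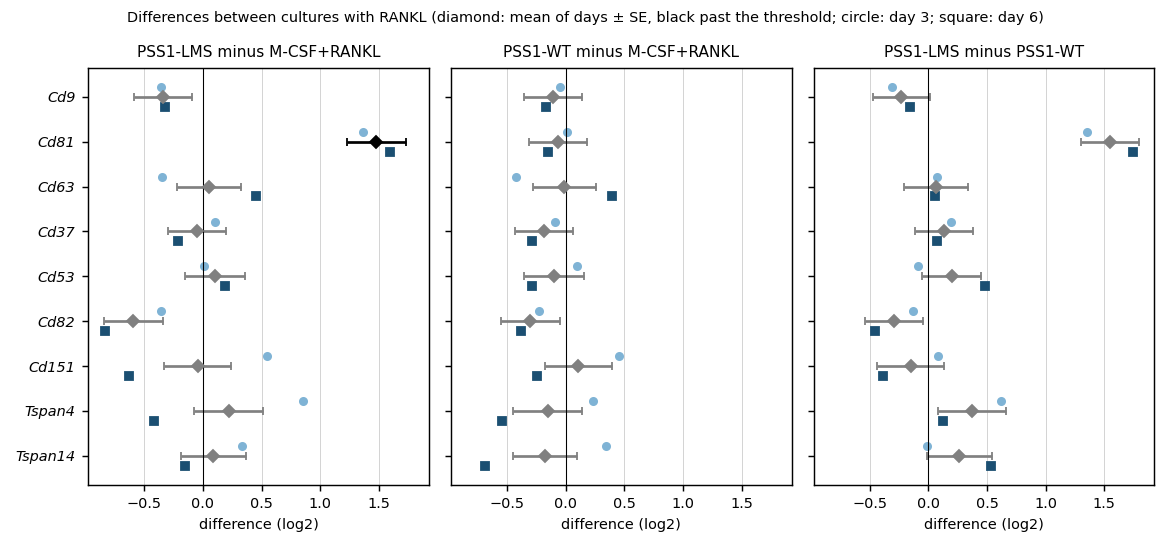
Log2 differences of the 9 tetraspanins between cultures with RANKL, one panel per comparison, with the mean of the days and its SE from limma as diamonds and single days as circles (day 3) and squares (day 6). Cd81 with PSS1-LMS stands at 1.36 and 1.60 on the 2 days, and Cd81 with PSS1-WT at 0.01 and -0.15.

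The last comparison followed the genes between days. Over the 3 cultures with RANKL, Cd81 alone among the 9 members changed from day 3 to day 6, against 3.38% of all genes called, 1.31% higher and 2.07% lower. It rose by 2.08 in PSS1-LMS, 1.69 in PSS1-WT and 1.85 in M-CSF+RANKL. The mean of 1.87 ± 0.20 (SE, limma adjusted p = 4.1e-05) is a 3.66-fold rise, the 15th largest of all genes. In the M-CSF culture Cd81 was 0.48 higher on day 6 than on day 3.

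Of the 14 macrophage markers, 5 rose between days in the cultures with RANKL, 9 did not pass, and 4 of those 9 had a negative change. Among the 5 that rose, C1qa and Marco lay within background on day 3 in all 3 cultures. C1qa was still within it in PSS1-LMS on day 6. The mean log2 signal of the 14 markers was higher on day 6 in all 3 cultures, while their summed signal in PSS1-WT was not. Their part in the Cd81 result was not tested. Cd36 rose between days too (2.85 ± 0.25 SE, limma adjusted p = 2.9e-06), and Itga6 fell (-1.53 ± 0.22 SE, limma adjusted p = 0.000847).

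Cd9 was higher on day 6 in all 3 RANKL cultures, by 0.42 to 0.58, without passing (0.51 ± 0.20 SE, limma adjusted p = 0.193). Cd37 was lower in all 3, by between -0.66 and -0.35, also without passing (-0.52 ± 0.20 SE, limma adjusted p = 0.197). Cd63 was at 17.36 and 18.06 in PSS1-LMS and at 17.29 and 18.00 in PSS1-WT, but at 17.72 and 17.61 in M-CSF+RANKL (mean change 0.43, adjusted p = 0.342). The mean changes of the other 5 lay between -0.01 and 0.36.

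Whether the change between days differed with and without RANKL was tested as 1 term in a fit over all 8 arrays. The difference is coded as the change in M-CSF minus the mean change in the 3 cultures with RANKL. Its error is the spread between those 3 cultures, and the single M-CSF culture is assumed to vary like them. It passed for 3 of the 9 tetraspanins, against 22.3% of all genes, 12.8% with a higher and 9.49% with a lower change in M-CSF.

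Cd37 changed by -0.66, -0.54 and -0.35 in PSS1-LMS, PSS1-WT and M-CSF+RANKL, against 1.87 in M-CSF, a difference of 2.39 ± 0.40 (SE, limma adjusted p = 0.000719). On day 3 Cd37 was thus higher with RANKL, and by day 6 the M-CSF culture, at 16.15, had passed all 3. Tspan4 changed by -0.23, 0.26 and 1.04 in PSS1-LMS, PSS1-WT and M-CSF+RANKL, against 2.04 in M-CSF, a difference of 1.68 ± 0.48 (SE, limma adjusted p = 0.0198). With values floored at background, which left those of Tspan4 unchanged, it did not pass (limma adjusted p = 0.189). For Cd81 the sign was opposite, with a smaller change in M-CSF (-1.40 ± 0.41 SE, limma adjusted p = 0.0221). Without either PSS1-LMS array the Cd81 term was -1.29 and did not pass (limma adjusted p = 0.0517). The terms of the other 6 lay between -0.77 for Cd9 and 1.07 for Cd82. That of Cd82 (1.07 ± 0.41 SE, limma adjusted p = 0.0738) passed without either M-CSF+RANKL array, at 1.18.

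**Figure D4:**
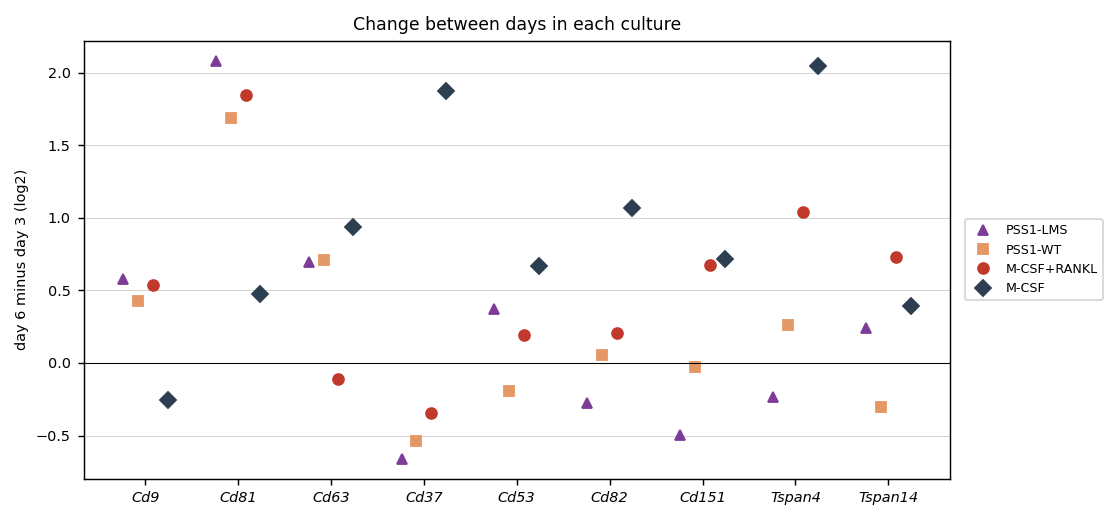
Day 6 minus day 3 (log2) of each tetraspanin in PSS1-LMS, PSS1-WT, M-CSF+RANKL and M-CSF; each point is the difference of 2 arrays. Cd81 rises by 1.69 to 2.08 in the cultures with RANKL and by 0.48 in M-CSF, and Cd37 falls in the cultures with RANKL and is 1.87 higher in M-CSF.

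Across the 8 arrays Cd81 tracked Cd53 and opposed Cd82. Pearson's r was 0.94 between Cd81 and Cd53 and -0.91 between Cd81 and Cd82. Over the 6 arrays with RANKL alone these were 0.64 and -0.50. Cd81 and Cd63 had r = -0.75 over 8 arrays but 0.65 over the 6 with RANKL, where both were higher on day 6 in the PSS1 cultures. Cd151 and Tspan4, which lie close together on chromosome 7 with Polr2l between them, had r = 0.81 over 8 arrays and 0.66 over the 6. All these values share arrays and are descriptions.

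Of all measured genes, those most like each member over the 8 arrays were listed for members spanning at least 2 log2 units. Nearest to Cd81 were Nlk, Apobec1 and Prdx1, with Pearson's r of 0.99 each. Nearest to Cd53 were Limd2, Prune2 and C1qc (r of 0.996 to 0.998), and to Cd82 Galnt6, Chp1 and Clcn7 (r of 0.995 to 0.997). Cd63 was followed most closely by Fgd6, Slc24a5 and Farp2 (r = 0.98 each), Cd37 by Wdr24, Ranbp10 and Herpud1 (r of 0.98 to 0.99) and Tspan4 by Etv3, Zfp9 and Nanp (r of 0.96 to 0.97). For the RANKL-responsive members such values mostly describe the step between arrays with and without RANKL.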

How the data were processed

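Total RNA of the 8 cultures was labelled from 500 ng per array, per the labels' protocols. The authors deposited log2 signals for 28846 features, used here unchanged; probe summarisation and normalisation are not given in the sources used here, and that the scale is log2 was inferred from the range of the signals. GEO's platform annotation gave 1 symbol to 19572 clusters (19505 genes); a gene with several was represented by the cluster of highest mean. Genes whose highest value reached 4.86, the 50th percentile of the table, were tested (10871). Background is the brightest of 23 background probe sets on an array (5.54 to 7.13); where the low side lay within it, folds were computed against it and are given as bounds.

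Fits used limma 3.58.1 in R 4.3.3 (lmFit, eBayes) with additive terms for culture and day. They covered all 8 arrays for RANKL and the 6 with RANKL for PSS1 and day. The difference of day effects was fitted over all 8 arrays with a further term for M-CSF by day. Days stand in for replicates, so p-values leave out spread between animals or cultures. The residual degrees of freedom were 3 for the RANKL comparison and 2 for all others, the difference of day effects included. The variance shared by all genes added 4.71 in the first and 13.3 in the others, so p-values lean on that shared part. The comparisons with M-CSF+RANKL share its arrays. Scripts were tested on simulated data. All members are named; of the other tetraspanins, partners and fusion genes, those that passed were named first, up to 6 or 4 each way. Members and lists were chosen with earlier results of these data known. Alternatives covered scaling, filters, background, eBayes settings and single arrays.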

Additional observations from a re-analysis of the deposited data

Results flagged for a closer look

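The change between days 3 and 6 differed between the cultures with RANKL and the M-CSF culture for 3 tetraspanins by the limma interaction term, which is coded as M-CSF minus the cultures with RANKL. The term was 2.39 for Cd37, 1.68 for Tspan4 and -1.40 for Cd81. Of all genes 22.3% passed this test, so 3 of 9 is near that share. The M-CSF side rests on 1 array per day.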

How the results depend on the processing

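Each comparison was refitted with array medians centred, quantile normalisation, no filter, a filter at the brightest background probe set, the mean of clusters, eBayes with trend and robust set, values floored at background, and without each array in turn; RANKL also with the mean of the 3 cultures, and PSS1 with all 8 arrays. Member values were recomputed for all 9 in the comparisons of RANKL and of days and for Cd81, Cd82 and Cd9 in those of PSS1. Of these 504 values, 460 kept their direction and their side of the threshold, 10 lost it, 14 gained it and 20 turned sign, none of the last for a member that had passed. The Cd81 rise with PSS1-LMS was lost, leaving 0 members higher, under quantile normalisation (adjusted p = 0.0508), without a filter (0.0733), with floored values (0.496) and with all 8 arrays (0.9999). Flooring left the members' own values as they were and changed the variance shared by all genes. PSS1-LMS against PSS1-WT gained 1 higher member with the background filter (0.0168) and with trend and robust (0.00554). With floored values the day effect had 0 members higher (Cd81, 0.125), and the difference of day effects had 1 higher, with Tspan4 lost (0.189), and 2 lower, with Cd9 gained (0.0373). Leaving out single arrays gave 1 to 3 members higher and 2 to 3 lower for RANKL, 0 to 1 higher for PSS1-LMS, 0 to 1 higher for PSS1-LMS against PSS1-WT, and 2 to 3 higher and 0 to 1 lower for the difference of day effects. The values that turned sign were the PSS1-WT difference of Cd81, 0.025 after centring and -0.21 to 0.07 without single arrays, and the day change of Cd82, 0.035 after centring, 0.025 after quantile normalisation and -0.11 to 0.13 without single arrays. Without single arrays they were also the RANKL differences of Cd37 (-0.30 to 2.09), Cd151 (-0.46 to 0.21), Tspan4 (-1.02 to 0.67) and Tspan14 (-0.050 to 0.57), the day changes of Cd53 (-0.0027 to 0.28), Cd151 (-0.26 to 0.32) and Tspan14 (-0.032 to 0.48), and the difference of day effects of Tspan14 (-0.094 to 0.42). The number of genes called also moved with single arrays, from 1198 to 4545 for RANKL against 2875, from 11 to 83 for PSS1-LMS against 19, from 3 to 61 for PSS1-WT against 1, from 0 to 48 for PSS1-LMS against PSS1-WT, where it was 0, and from 270 to 678 for the day effect against 367. For PSS1-LMS it was 1 after quantile normalisation or with all 8 arrays, 2 without a filter, 37 with the background filter, 48 with trend and robust and 0 with floored values. For PSS1-WT it was 2 with the background filter or trend and robust and 0 floored; for PSS1-LMS against PSS1-WT 8 and 7 with the first pair; for the day effect 230 without a filter and 0 floored; and for the difference of day effects 1433 floored, against 2425. Without an M-CSF array of either day the difference of day effects could not be fitted. No paired analysis was possible because each group had 1 array and the labels carry no replicate numbers to pair by; day, a term of every fit of cultures, is the one pairing the design has. Leaving out an array leaves its culture with 1, whose spread is then assumed to be that of the others.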
